A study of Mus musculus with 2 samples.

Results

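The 6 conventional actin genes of the mouse were compared between 2 gastrocnemius muscles: Acta1 and Actc1, which encode the skeletal and cardiac alpha-actins of striated muscle, Acta2 and Actg2, which encode the smooth muscle actins, and Actb and Actg1, which encode the cytoplasmic beta- and gamma-actins. They were taken as every gene whose symbol in the platform's probe annotation equals one of these 6 names. All 6 have a probe, against 19321 genes with a probe in all, and all 6 were above background on both arrays, as were 17560 genes. The set was proposed because Actc1 had the lowest ratio of any gene on these arrays, so it was chosen by the ratio between these same 2 arrays. The values of Actc1 are therefore a description and nothing is supported with them.

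The question of the study was which genes are expressed differently in muscle from which PDGFRα-positive mesenchymal progenitors, the interstitial cells that make matrix, had been removed. The control array held RNA of a wild type:R26-DTA mouse and the depleted array RNA of a Pdgfra-CreER:R26-DTA littermate. Both were females of 10 weeks, both carried the R26-DTA allele, and both received tamoxifen on 5 consecutive days from 9 weeks of age, with the muscle frozen 2 days after the last dose. In the depleted genotype CreER is made wherever the Pdgfra promoter is active and lets diphtheria toxin A be made there, which kills the cell. Each group held 1 mouse and 1 array, so no value has a replicate, no test was possible, and a difference between the genotypes cannot be told apart from one between 2 animals or 2 arrays. The control carried no CreER, so its presence cannot be told apart from depletion either.

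Actin monomers assemble into filaments. In striated muscle the alpha-actins form the thin filament on which myosin pulls. The adult skeletal myofibre relies on Acta1, while Actc1 is the main form of the heart, is also made in developing skeletal muscle, and recedes there as the fibres mature. Acta2 marks vascular smooth muscle, some pericytes and activated fibroblasts. Actg2 belongs mainly to the smooth muscle of gut and bladder. Actb and Actg1 are made in nearly every cell and are used for shape, adhesion and movement. Transcription of several actin genes depends on serum response factor (SRF), which binds the CArG box and is helped by the coactivators of the MRTF family when free actin monomers run low.

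Sequence upstream of the genes was compared next, a feature that the choice of members did not use. RefSeq promoter windows (GRCm38.p6, minus strand for each) were found for 4 of the 6 genes: chr2:114052876-114053125 for Actc1, chr8:123894776-123895025 for Acta1, chr11:120348496-120348745 for Actg1 and chr19:34255374-34255623 for Acta2. They are shown because 3 of them hold the SRF motif and the fourth holds near matches of it, over the 250 bases before the annotated start, 5′ to 3′, with the motif matches in capitals.
Actc1: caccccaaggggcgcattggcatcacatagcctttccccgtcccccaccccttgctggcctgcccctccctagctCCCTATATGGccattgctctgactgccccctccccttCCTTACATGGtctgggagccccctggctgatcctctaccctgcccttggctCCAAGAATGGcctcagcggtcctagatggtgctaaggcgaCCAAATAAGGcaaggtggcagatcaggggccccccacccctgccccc
Acta1: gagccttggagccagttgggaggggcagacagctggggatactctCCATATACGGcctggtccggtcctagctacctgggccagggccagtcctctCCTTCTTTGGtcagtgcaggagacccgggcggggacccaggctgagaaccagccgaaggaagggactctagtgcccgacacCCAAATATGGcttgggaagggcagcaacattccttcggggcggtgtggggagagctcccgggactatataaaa
Actg1: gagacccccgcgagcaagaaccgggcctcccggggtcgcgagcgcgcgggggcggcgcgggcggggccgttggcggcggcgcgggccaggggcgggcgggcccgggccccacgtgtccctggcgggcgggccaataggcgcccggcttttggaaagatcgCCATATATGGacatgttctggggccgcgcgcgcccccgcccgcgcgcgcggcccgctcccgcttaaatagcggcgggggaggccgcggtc
Acta2: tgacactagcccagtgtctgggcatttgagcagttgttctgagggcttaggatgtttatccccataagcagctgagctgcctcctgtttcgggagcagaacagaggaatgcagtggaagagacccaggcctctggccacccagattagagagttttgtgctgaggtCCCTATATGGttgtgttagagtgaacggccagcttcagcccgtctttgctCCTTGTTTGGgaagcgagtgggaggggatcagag
A CArG box was searched as CC, then 6 bases that are each A or T, then GG, a motif that reads the same way on both strands. A near match had exactly 1 of those 6 bases as C or G. Actc1 held 1 full box, from base -47 to -38 before the start, and 3 near matches from -175 to -166, from -138 to -129 and from -87 to -78. Acta1 held 1 full box from -73 to -64 and 2 near matches. Actg1 held 1 full box from -90 to -81 and 0 near matches, and Acta2 held 0 full boxes and 2 near matches, from -84 to -75 and from -34 to -25. Among all 32851 windows in the RefSeq table, 1.47% held a full box and 7.24% a near match. The letters TATAAA, searched on the gene's strand only, began at -7 in Acta1 and at 34 bases past the annotated start in Actc1, and 8.32% of all windows of 300 bases held them. These matches describe sequence and are not evidence of binding in these muscles.

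**Figure D1:**
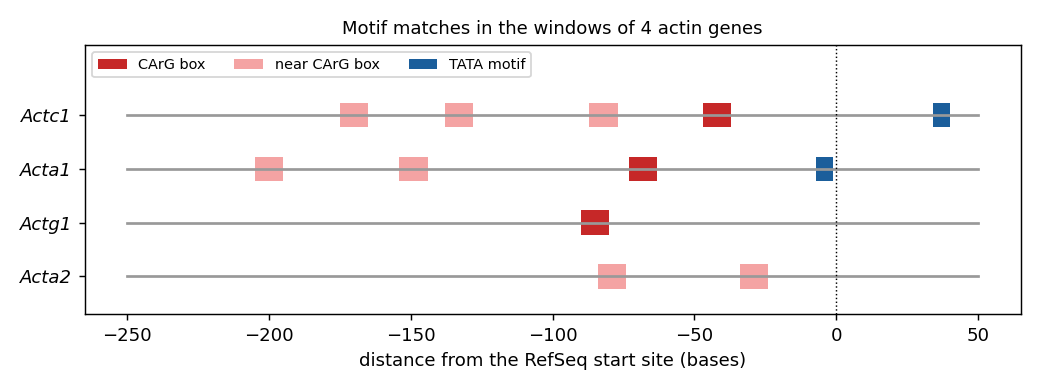
Motif matches along the promoter windows of 4 actin genes, with distance in bases from the RefSeq start site on the horizontal axis and a row for each gene. Dark red marks full CArG boxes, pale red near matches and blue the TATA motif. Full boxes lie in Actc1, Acta1 and Actg1, and Acta2 holds near matches only.

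The marker lists went with the label of skeletal muscle. All 12 fast myofibre markers were measured on both arrays, and their deposited values summed to 422714 on the control and 304039 on the depleted array. The targeted gene Pdgfra had deposited values of 273.1 and 116.6 and a log2 ratio of -0.94. Of 12 mesenchymal progenitor markers 12 were lower on the depleted array, 6 of them at least 2-fold (median log2 ratio -1.02). Of 9 macrophage markers 9 were higher, 1 of them past 2-fold (median 0.71). Among all compared genes, 0.427% fell past 2-fold and 0.492% rose past it. In deposited values those shares were 2.15% and 3.19%, and the medians of the lists -1.24 and 0.94. There Pdgfra (-1.23), Col1a1 (-1.80), C1qc (1.05) and the dim Itgam (1.06) were past 2-fold as well. Col1a1 and Itgam lie outside the rule for naming genes. Both lists were chosen with earlier results of these data known. In whole muscle, fewer cells of a type and less RNA per cell cannot be told apart. Log2 ratios here set the depleted array over the control array, after background correction and quantile normalization. Deposited values are intensities as processed by the authors, on a linear scale.

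Actc1, the cardiac alpha-actin, was far lower on the depleted array. Its spot read 7780.5 intensity units in control and 632 in depleted muscle before any correction. The deposited values were 9854.9 and 558.7, so the depleted value was 5.67% of the control value. The log2 ratio was -3.96, which is 15.5-fold lower, and in deposited values the gene was 17.6-fold lower. This was the lowest of 18498 compared genes in both sets of values. The spot was thus well above background on both arrays, and the difference does not rest on a value near the limit of detection.

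The genes with the ratio nearest to that of Actc1 lay at least 0.65 away from it on the log2 scale over the 2 arrays. The search covered 8780 genes, those detected on both arrays whose mean intensity was no lower than the median. The 5 nearest were the beta-globins Hbb-bt (-3.30), Hbb-b2 (-2.51) and Hbb-bs (-2.47), Nrep (-2.28) and the alpha-globin Hba-a2 (-2.13). The globin probes can share signal among near-identical copies, so these values are not independent of each other. The likeness rests on 2 arrays.

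Acta1, the alpha-actin of the adult myofibre, gave the brightest of 23473 probes on the control array and stood at rank 2 on the depleted array. The spot read 51523 in control and 48426 in depleted muscle. The deposited values were 65519.4 and 45415.0, which is 1.44-fold lower in depleted muscle. After quantile normalization the log2 ratio was -0.04, and after cyclic loess it was -0.66. Quantile normalization gives probes of the same rank the same value, so for a probe at the top of both arrays the ratio is set almost entirely by its rank. The size of the difference in Acta1 therefore depends on the scaling, while it stayed under 2-fold in each setting. On both arrays the spot was among the few (12 in control and 14 in depleted muscle) whose scanner readings are whole to every decimal given. The lowest of these readings were 32859 and 32762 units, whereas the brightest of the other spots read 29799 and 28247. The files do not state how the scan gains were joined for these spots, and every spot of both arrays carries the scanner's OK flags, so the flags do not tell these spots from others.

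The smooth muscle actins were slightly higher on the depleted array. Acta2, the actin of vascular smooth muscle, read 835 in control and 1777 in depleted muscle at the spot, with deposited values of 1016.4 and 1633.1. Its log2 ratio was 0.61, or 1.53-fold higher. Actg2, the actin of visceral smooth muscle, was dim, with spots of 55.3 and 80.7 against detection limits of 37.4 and 38.5. Its deposited values were 24.3 and 41.0, which is 1.69-fold higher, whereas the log2 ratio of 0.27 is drawn toward 0 by the offset of 50 used in the correction. Both genes were thus above 0 and under 2-fold.

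The cytoplasmic actins differed from each other. Actb read 906 in control and 1850.2 in depleted muscle at the spot, with deposited values of 1106.2 and 1701.8 and a log2 ratio of 0.54, or 1.46-fold higher. Actg1 read 1936 and 2801, with deposited values of 2417.3 and 2594.3 and a log2 ratio of 0.03, or 1.02-fold higher. Both genes are common reference genes for scaling, and on these arrays Actb differed more than Actg1, by 0.51 on the log2 scale. A scale set by Actb would thus have moved every other ratio by 0.54, and one set by Actg1 by 0.03.

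**Figure D2:**
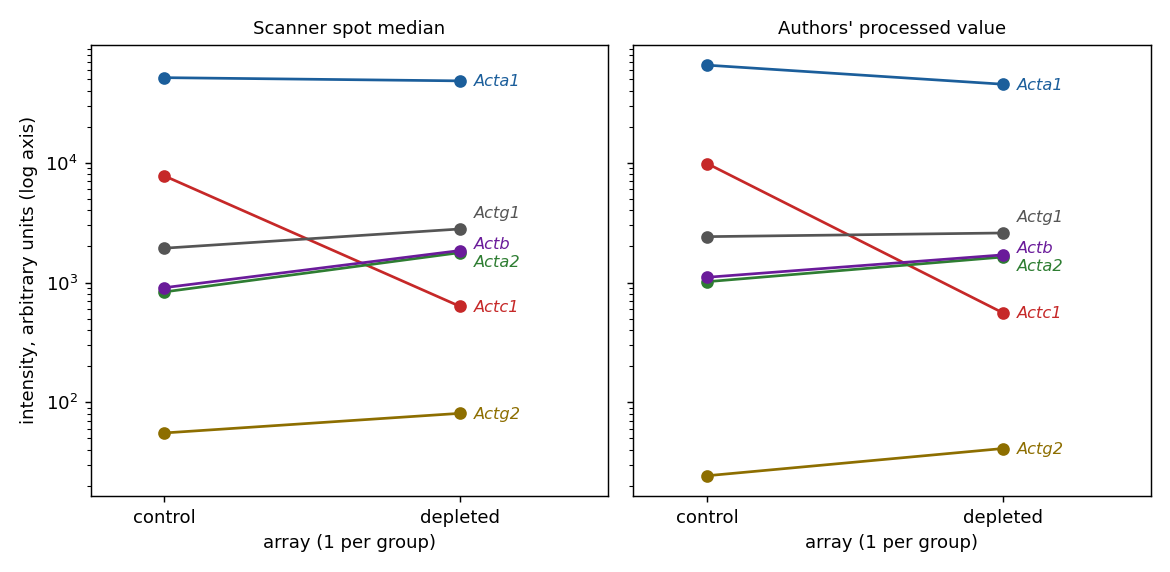
Intensity of each actin gene on the control and the depleted array, as the scanner's spot median (left) and as the authors' processed value (right), on a log axis in arbitrary units, with 1 point per array and a line joining the 2 arrays. Actc1 drops from 9854.9 to 558.7 in deposited values, Acta1 is lower by 1.44-fold, and the other 4 genes are level or higher. Heights of different genes are not comparable, since each has its own probe.

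Read against all genes, 1 of the 6 actin genes was at least 2-fold lower (Actc1, whose ratio chose the set) and 0 were at least 2-fold higher. Among all 18498 compared genes 79 (0.427%) were lower and 91 (0.492%) higher by that much, so 53.5% of those past 2-fold were higher, or 85.0% (38 lower and 216 higher) with scaling to the median. In deposited values the same 1 actin gene was past 2-fold, beside 2.15% of all genes lower and 3.19% higher. At 1.5-fold, Acta2 was the 1 actin gene higher, beside 1.96% of all genes, and in deposited values Acta2, Actg2 and Actb were, beside 10.0%. The median log2 ratio of the 6 genes was 0.15, beside 0.00 for all genes, and 2 of the 6 were below 0.

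The offset draws ratios of dim genes toward 0, and ratios of bright genes spread wider than those of all genes. Of the 6 actin genes 5, all but Actg2, lay in the brightest 10% of compared genes. Of those 1850 bright genes 2.0% were lower and 2.11% higher by 2-fold or more. The central 95% of their log2 ratios ran from -0.94 to 0.95, and that of all genes from -0.48 to 0.52. Acta2 and Actb lay above the range of all genes and inside that of bright genes. Actc1 lay below both.

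**Figure D3:**
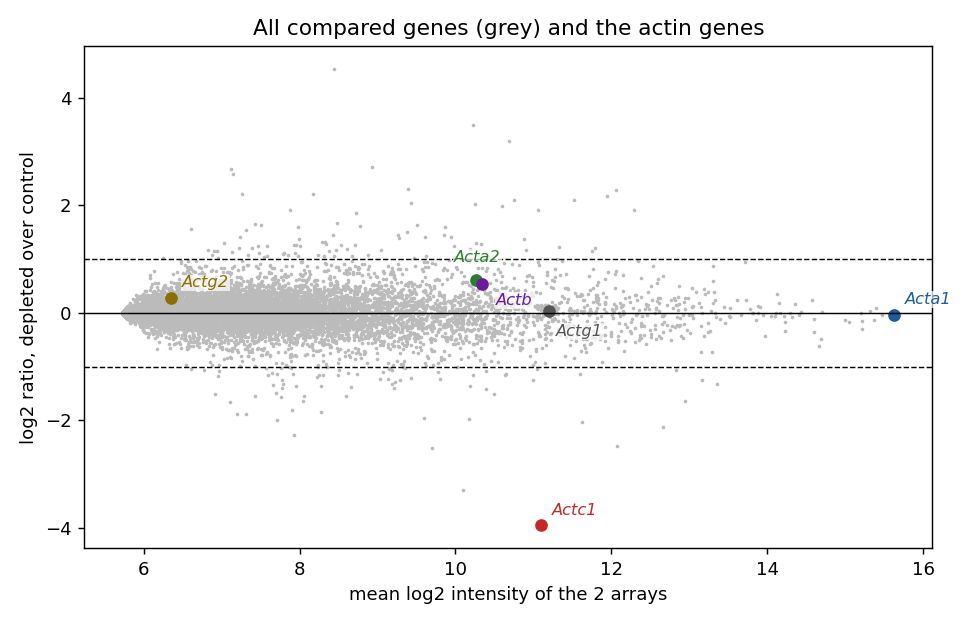
Log2 ratio of depleted over control (vertical axis) against mean log2 intensity of the 2 arrays (horizontal axis) for 18498 compared genes in grey, with the actin genes in colour and dashed lines at 2-fold. Actc1 at -3.96 is the lowest point, and the other 5 lie between -0.04 and 0.61.

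A single scale factor per array, as in the deposited values, cancels when 2 genes of the same array are set against each other. The ratios of members were also set against each other, over 15 pairs and with no test. Actc1 was lower relative to each of the other 5 genes, by 3.92 on the log2 scale relative to Acta1, 3.99 relative to Actg1, 4.23 relative to Actg2, 4.50 relative to Actb and 4.57 relative to Acta2. That direction was fixed in advance, since Actc1 was chosen as the gene with the lowest ratio, so these 5 differences are a description only. The alpha-actins of striated muscle thus differed from each other by 15.1-fold in their ratios, or 12.2-fold in deposited values. Among the other 5 genes the largest difference after quantile normalization was 0.65, between Acta1 and Acta2. In deposited values, where the scale factor cancels, it was 1.28, between Acta1 and Actg2. There Acta1 was lower than Acta2, Actg2 and Actb by 2.32-fold, 2.43-fold and 2.22-fold in relative terms. Acta2 and Actb had nearly the same ratio, 0.07 apart on the log2 scale and 0.06 in deposited values. The differences describe unequal ratios on 2 arrays and not which gene held still.

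The direction for most members did not depend on how the values were scaled. Over 8 settings, that in use here among them, Actc1 lay between -4.14 and -3.70 on the log2 scale and was past 2-fold in 8 of 8. Acta2 (0.61 to 0.95) and Actg2 (0.27 to 0.76) were above 0 in 8 of 8. Acta1 was below 0 in 7 and at 0 in 1, from -0.66 to 0.00. Actb was above 0 in 7 of 8, and at -1.37 with the local background column subtracted. Actg1 was above 0 in 8 of 8, from 0.03 to 0.40 in 7 of them and at 9.03 with the local background subtracted. That column follows the signal of the spot itself. For Actg1 on the control array it read 1954 beside a spot of 1936, which left nothing to measure.

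**Figure D4:**
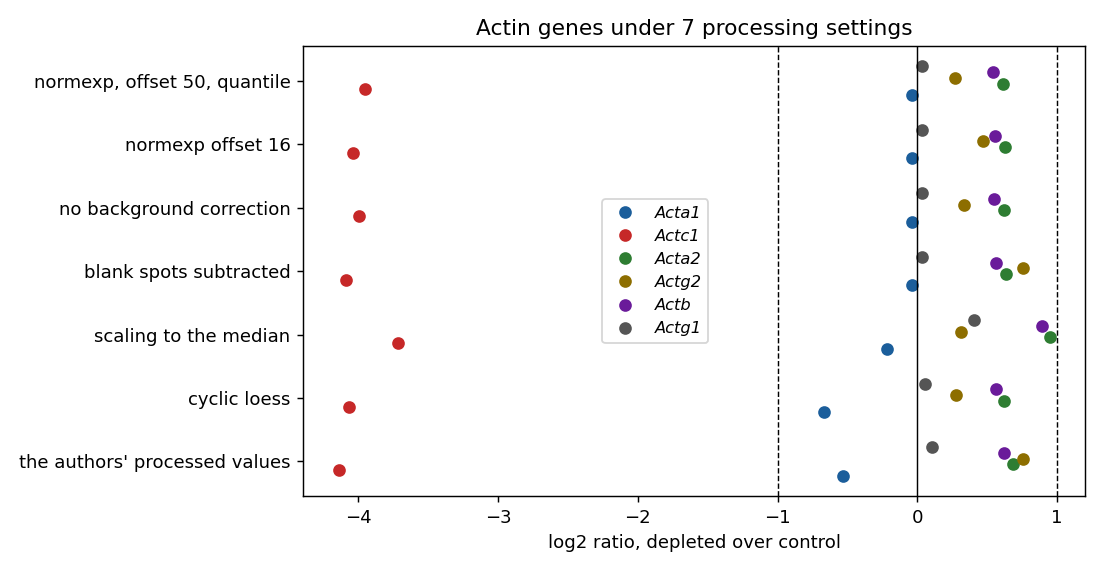
Log2 ratio of depleted over control (horizontal axis) of each actin gene under 7 ways of processing the same 2 arrays, a row for each, with dashed lines at 2-fold. Actc1 stays between -4.14 and -3.72, Acta1 moves from -0.04 to -0.66, and the other 4 stay above 0 and under 2-fold. Subtraction of the local background is not drawn, nor is the mean of a gene's probes, which cannot differ for genes with 1 probe.

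The place of the spots on the array was also compared. Probes in the printing block of Actc1 had a median log2 ratio of 0.00, and the 8 probe spots next to it a median of 0.04. The blocks of the other members had medians between -0.01 and 0.02, and the spots next to them between -0.01 and 0.17. Each member had 1 probe and 1 spot, so no second probe could be set beside it. Actin genes are close copies of each other in their coding parts, the probe sequences were not used here, and signal shared between the actin probes was not tested.

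Partners of actin in the striated thin filament showed no common shift. Of 21 measured genes 8 were lower and 11 higher on the depleted array, with a median log2 ratio of 0.04 beside 0.00 for all genes, and 1 was past 2-fold. The median was below 0 in deposited values (-0.09) and with cyclic loess (-0.12). Genes of equal rank on both arrays, such as Tpm2 and Actn3, have a ratio of 0 and count as neither lower nor higher. The gene past 2-fold was Xirp1, an actin-binding protein of the myofibre's repair sites, at 1.11 (deposited values 75.4 and 231.1). Nrap, which takes part in myofibril assembly, was at 0.93, Tnnt1, the slow troponin T, at 0.71, and Tmod1, which caps the pointed end of the filament, at -0.74, while the dimmer probe of Tmod1 gave -0.04. In deposited values the log2 ratio of Nrap was 1.02, so Nrap was past 2-fold there too. Fast myofibre markers were lower in 8 of 12 and higher in 2, with 2 past 2-fold and a median of -0.06. That median was -0.43 in deposited values and -0.56 with cyclic loess. In deposited values each of the 12 was lower, with log2 ratios from -2.04 to -0.26. The 2 past 2-fold were the calcium store protein Casq1 (-2.03) and the calcium buffer Pvalb (-1.25). Slow myofibre markers were lower in 5 of 10 and higher in 5, with a median of 0.01. The named members, taken by size, were all higher: Myoz2 at 0.78, Tnnt1 at 0.71, Tnnc1 at 0.65 and Tnni1 at 0.58. Of the lower members the furthest from 0 was the slow myosin Myh7 at -0.51.

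Genes that share the times or places of Actc1 expression were measured too. None could match its ratio, since Actc1 was chosen as the gene with the lowest. Of 18 genes of developing and regenerating myofibres 8 were lower, 10 higher and 0 past 2-fold, with a median of 0.01. The fetal growth factor Igf2 was at -0.74, the myogenic factor Myod1 at -0.53, the embryonic light chain Myl4 at -0.44 and the adhesion protein Cdh15 at 0.58. In deposited values the log2 ratios of Igf2, Myod1, Myl4 and Cdh15 were -1.03, -0.80, -0.54 and 0.92, so Igf2 was past 2-fold there. So was Dlk1, which was very dim (4.5 and 2.2) and lies outside the rule for naming genes. The embryonic myosin Myh3 had deposited values of 39.2 and 53.9, and the perinatal myosin Myh8 of 502.5 and 405.0, both outside the rule for naming genes and singled out after their values were seen. Of 15 cardiac sarcomere genes 9 were lower, 6 higher and 0 past 2-fold, with a median of -0.04, Tnnc1 at 0.65, Myh7 at -0.51, Ankrd1 at 0.43 and Csrp3 at 0.36.

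Cardiomyocyte markers were dim, though above the detection limit on both arrays. Of the 9, 8 had deposited values of at most 32.1 on either array, among them the atrial light chain Myl7 (32.1 and 30.0), the cardiac troponin I Tnni3 (19.4 and 16.4) and the natriuretic peptide gene Nppb (7.7 and 6.0). The cardiac myosin Myh6 was at 7.7 and 7.8, and Nppa, of the same peptide family, at 6.6 and 6.7, both outside the rule for naming genes and given because they define the heart. The remaining marker, the transcription factor Nkx2-5, had deposited values of 626.5 and 259.4 and a log2 ratio of -1.13. The list summed to 721 in control and 350 in depleted muscle. Muscle stem cell and myoblast markers were higher in 8 of 10 and lower in 2, with a median of 0.10 and 0 past 2-fold.

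Smooth muscle contractile genes other than the actins were lower in 5 of 13 and higher in 7, with 0 past 2-fold and a median of 0.00. Tagln, an actin-binding protein of smooth muscle, was at 0.68 (deposited values 373.6 and 648.0) and Cnn1, calponin, at 0.52 (24.0 and 59.1). In deposited values, which no offset draws toward 0, the log2 ratio of Tagln was 0.79 and that of the dim Cnn1 1.30, beside 0.68 for Acta2. Smtn, smoothelin, was at -0.69, with its dimmer probe at -0.02, and Synpo2 at -0.43. Pericyte markers were lower in 6 of 10 and higher in 4, with a median of -0.02, Ndufa4l2 at -0.54, Rgs4 at 0.27, Kcnj8 at 0.18 and Rgs5 at -0.18, although scaling to the median put Rgs5 at 0.07 and the list's median at 0.11. The part of cell numbers in the ratio of Acta2 was not tested.

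SRF itself and its coactivators were lower in 6 of 10 and higher in 4, none past 2-fold, with a median of -0.04. Srf was at -0.33 (deposited values 99.6 and 69.0), the coactivator Mrtfa at -0.27 (37.0 and 21.0), Elk3 at -0.14 and the LIM protein Fhl1 at 0.08, although Fhl1 was at -0.12 in deposited values and at -0.23 with cyclic loess. SRF targets other than actins were lower in 10 of 21 and higher in 11, with 1 past 2-fold lower and 2 past 2-fold higher and a median of 0.08. The immediate early genes Egr1 (2.22), Fos (1.15) and Junb (0.79) were higher. They were dim in control muscle, with deposited values of 20.9, 31.3 and 40.1, beside 305.6, 138.7 and 111.0 in depleted muscle. Of the same class, Egr2 was at 0.23 and Fosb at -0.20, both outside the rule for naming genes. With the local background subtracted Fos was at -2.76. The junctional membrane protein Jph2 was lower (-1.37, with its dimmer probe at -0.94). These targets answer to other factors too.

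The proteins that bind, sever and nucleate actin gave medians near that of all genes. Of 22 genes of monomer binding and turnover 10 were lower and 11 higher, with a median of 0.03. The filament-severing protein gelsolin, Gsn, was the 1 gene past 2-fold, at -1.06 with deposited values of 12540.5 and 5485.4, and it is also on the list of mesenchymal progenitor markers. Twf2, a monomer-binding twinfilin, was at 0.67, the macrophage-rich capping protein Capg at 0.66 and the leukocyte coronin Coro1a at 0.50. In deposited values the log2 ratios of Twf2, Capg and Coro1a were 0.72, 0.89 and 1.04, so Coro1a was past 2-fold there. So was Ssh2, which was very dim (5.2 and 11.6) and lies outside the rule for naming genes. Macrophage markers were higher too, as given above, and their part in the ratios of Twf2, Capg and Coro1a was not tested. Of 25 capping and nucleation genes 16 were lower, 9 higher and 0 past 2-fold (median -0.03), with the formin Fhod3 at -0.52 and its dimmer probe at -0.02, Spire1 at -0.45, the capping subunit Capza2 at -0.42 and Actr3 of the Arp2/3 complex at 0.41. Of 20 partners of non-muscle filaments 11 were lower, 9 higher and 0 past 2-fold (median -0.01). Talin, Tln1, was at -0.60, Tpm3 at 0.47, plectin, Plec, at -0.45 and the leukocyte bundling protein Lcp1 at 0.40. In deposited values the log2 ratio of the dim Lcp1 was 1.37 (14.3 and 36.9), while Tln1, Tpm3 and Plec stayed under 2-fold.

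**Figure D5:**
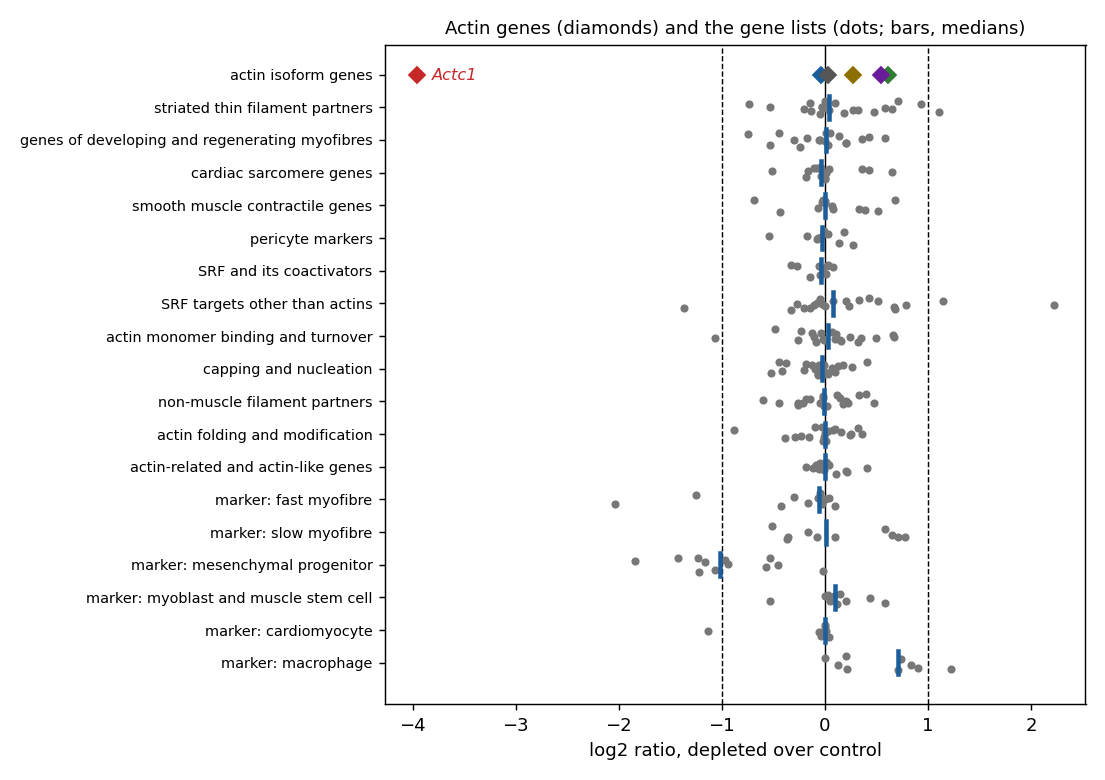
Log2 ratio of depleted over control (horizontal axis) of the 6 actin genes (diamonds) and of each measured gene of 18 lists (dots, with a bar at the median), a row for each list, with dashed lines at 2-fold. Actc1 at -3.96 lies outside the range of every list, as its choice by the lowest ratio fixed. Mesenchymal progenitor markers have a median of -1.02 and macrophage markers of 0.71, and the medians of the other 16 lists lie between -0.06 and 0.10.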

How the data were processed

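RNA of 2 muscles was hybridised to 1 array each, per the labels' protocols. The scanner files deposited by the authors hold the median intensity of each spot, joined from 3 scan gains and not normalized, per the file headers. The authors' table of processed intensities has a median of 25 on each array, and is a straight line of the scanner values: close to the mean of the blank spots is taken off, and the rest is multiplied by 1.27 (control) or 0.939 (depleted). The scanner model and genome build are not stated in the labels or headers.

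Here, intensities were corrected with normexp in limma 3.58.1 (R 4.3.3, offset 50), taken to log2 and quantile-normalized across 23473 probes. The brightest probe stood for a gene. Above background meant over the mean of the blank spots plus 2 SD (37.4 and 38.5), and 18498 genes above it on at least 1 array were compared, an array below it taking the higher of its own value and the lowest value above background. Called means past 2-fold. The steps were also run on simulated data, in which no probe as dim as Actg2 or as bright as Acta1 was given a change. The outcome of that run is not given here. Tables and plots used Python 3.11.15, numpy 2.4.6, pandas 2.3.3 and matplotlib 3.10.9. The number of arrays limits the precision.

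Symbols came from the platform annotation (20690 probes with 1 symbol, 0 with several, 2783 with none), and 20556 probes, all actin probes among them, matched RefSeq by Entrez gene. The members and lists were chosen with earlier results of these data known. Named genes are all members, up to 4 genes of each list by size of the log2 ratio among those above background on both arrays, actins left out, and the 5 genes nearest in ratio to Actc1 among genes at or above the median intensity, without predicted genes and RIKEN clones. Myh3, Myh8, Myh6, Nppa, Egr2, Fosb, Dlk1, Ssh2, Col1a1 and Itgam were named outside this rule, after their values were seen. The alternatives were an offset of 16, no correction, subtraction of blank spots or of the local background column, cyclic loess, scaling to the median, the values processed by the authors, the mean of a gene's probes, 3 other filters and thresholds of 1.5-fold and 3-fold.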

Additional observations from a re-analysis of the deposited data

How the results depend on the processing

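No paired analysis was possible because there was 1 array per genotype. Of 418 recomputed values, 384 stayed on their side of the 2-fold threshold (counts, within 1.5 times), where changes of sign under 2-fold are not counted. Of these, 21 could not differ, since each actin gene has 1 probe to average. With the local background column subtracted, which follows the signal of the spot, Actb was at -1.37 and Actg1 at 9.03, and 2 actin genes were at least 2-fold lower and 1 higher. The differences then were 1.37 for Acta1 minus Actb, -9.03 for Acta1 minus Actg1, 1.97 for Acta2 minus Actb, -8.42 for Acta2 minus Actg1, 1.71 for Actg2 minus Actb, -8.68 for Actg2 minus Actg1 and -10.40 for Actb minus Actg1. Those of Actc1 minus Actb and Actc1 minus Actg1 stayed past 2-fold and moved from -4.50 to -2.33 and from -3.99 to -12.73. Acta1 minus Acta2 passed 2-fold with scaling to the median (-1.17), cyclic loess (-1.29) and the authors' processed values (-1.21), as did Acta1 minus Actb (-1.11, -1.23 and -1.15). Acta1 minus Actg2 was at -1.28 in the authors' processed values. At 1.5-fold in place of 2-fold, 1 actin gene was higher.

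Over all genes, 79 lower and 91 higher became 360 and 502 after subtraction of the blank spots, 1986 and 1917 after that of the local background, 38 and 216 on scaling to the median, 397 and 591 from the authors' processed values, and by construction 282 and 363 at 1.5-fold and 17 and 27 at 3-fold. An offset of 16 gave 163 higher. The median of mesenchymal progenitor markers was -0.86 with scaling to the median and -0.95 with the mean of a gene's probes. Of 67 named genes of the lists, 20 changed sign with the local background subtracted and 4 (Actr6, Fhl1, Myl7 and Rgs5) under another setting. Where no cause is given, the cause was not tested. Signal over background limits Actg2, which lay 19.1 units above the blank spots in control and 43.7 in depleted muscle.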

Other observations

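Genes related to actin in sequence and the machinery that folds actin were measured too. Of 15 actin-related and actin-like genes 8 were lower and 7 higher on the depleted array, 0 of them past 2-fold, with a median log2 ratio of 0.00 beside 0.00 for all genes. Actr3 of the Arp2/3 complex was at 0.41, Actr8 at 0.21, Actl6a, a chromatin remodelling subunit, at 0.20 and Actr6 at -0.19, or 0.01 with scaling to the median.

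Of 19 genes of actin folding and modification 10 were lower, 9 higher and 0 past 2-fold, with a median of 0.00. The chaperonin subunit Cct2 was at 0.36 and the prefoldin subunits Pfdn2 and Pfdn1 at 0.32 and -0.38. Smyd1, a methyltransferase of striated muscle that takes part in sarcomere assembly, was the furthest from 0 at -0.89, with deposited values of 1798.8 and 984.5.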
